A study of Mus musculus with 20 samples.

Results

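The genes described here write, erase and read methylation of cytosine in DNA: Dnmt1, Dnmt3a, Uhrf1, Tet1, Tet2, Tet3, Mbd1, Mbd2, Gadd45a and Gadd45b. They were listed by name, with no cut on their values, though earlier results of these data were known when they were chosen. Their rows were read from the table of counts per gene. Of these 10 genes, 8 had a row among the 12988 genes of the table. Uhrf1 and Gadd45a had no row and were not analysed here.

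DNA methyltransferases place a methyl group on cytosine, mostly where a G follows it. Dnmt1 copies the pattern onto new DNA strands after replication, with Uhrf1 as its recruiter, and Dnmt3a sets new marks and is the main such enzyme in mature neurons. The TET proteins oxidise methylcytosine, which starts its removal by base excision repair. Mbd1 and Mbd2 bind methylated DNA and bring repressor complexes to it, Mbd2 as a part of the nucleosome remodelling and deacetylase complex (NuRD). Gadd45 proteins are stress-responsive adaptors that have been tied to active demethylation, and Gadd45b is an activity-induced gene in neurons.

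RNA came from the adBNST, the anterodorsal part of the stria terminalis bed nucleus, a forebrain region with a part in anxiety and stress responses, of female and male mice that were 7 to 9 weeks old when the study began. Control mice were compared with mice put through chronic variable mild stress, a 6-week course of changing minor stressors, so the groups were female control, female stressed, male control and male stressed. Each group had 15 mice, and tissue of 3 mice was pooled for each library, which gave 5 libraries a group and 20 in all. All mice were anaesthetised with ketamine. Stressed mice were sampled 1 hour after a last stressor of wet bedding. The strain is not given in the sources used here.

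Library totals ran from 2707881 to 33595388 counts, with a median of 15598376. The shallowest library was female control 4. Female stressed library 2 stood apart by a thalamic marker score of 0.56, the mean log2 level of 10 genes centred over the libraries. All 10 genes of a general neuron list had a row, with summed levels of 5271 to 6015 CPM (counts relative to the TMM-scaled library total), and they include Gad1 and Gad2, the enzymes that make the transmitter GABA. No list of markers particular to the adBNST was used. The 14 genes of a striatal neuron list, some of which the adBNST itself expresses, summed to between 3281 and 6843 CPM.

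No member passed the test for a change with stress or for a difference between the sexes, which was edgeR's quasi-likelihood test with Benjamini-Hochberg adjustment over the 12988 genes and a threshold of 0.05. In stressed against control females 0 of 8 members were called, where 0% of all genes were. In stressed against control males 0 of 8 were called, where 0.0077% of all genes were. Between male and female controls 0 of 8 were called, where 0.747% of all genes were, and between stressed males and stressed females 0 of 8, where 0.077% of all genes were. The sex by stress interaction (the stress effect in males less that in females) and the average stress effect of both sexes each called 0 of 8 members and 0% of all genes. DESeq2 and limma-voom called 0 members in each of the 6 contrasts too, and so did edgeR with female control 4 and female stressed 2 both left out. In bulk tissue, fewer cells of a type and less RNA per cell cannot be told apart.

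At an unadjusted p under 0.05 the members stood near the background. Stress in females gave 0 of 8, where 7.51% of all genes passed. Stress in males gave 1 of 8, Mbd2, against 15.5%, and sex in controls gave 1, again Mbd2, against 15.3%. Sex in stressed mice gave 1, Dnmt1, against 7.06%. The interaction gave 1, Dnmt1, against 10.4%, and stress averaged over the sexes gave 0 against 12.7%. The ranges of the 5 libraries overlapped for all 8 members in each of the 4 comparisons of 2 groups, where 1.22%, 4.3%, 3.97% and 1.27% of all genes had ranges that did not overlap in females, in males, between controls and between stressed mice. The median log2 fold change of the members was 0.08 with stress in females, -0.00029 with stress in males, 0.06 between the sexes as controls and -0.04 between the sexes under stress, beside -0.0011, -0.0067, 0.00025 and -0.00035 over all genes.

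**Figure D1:**
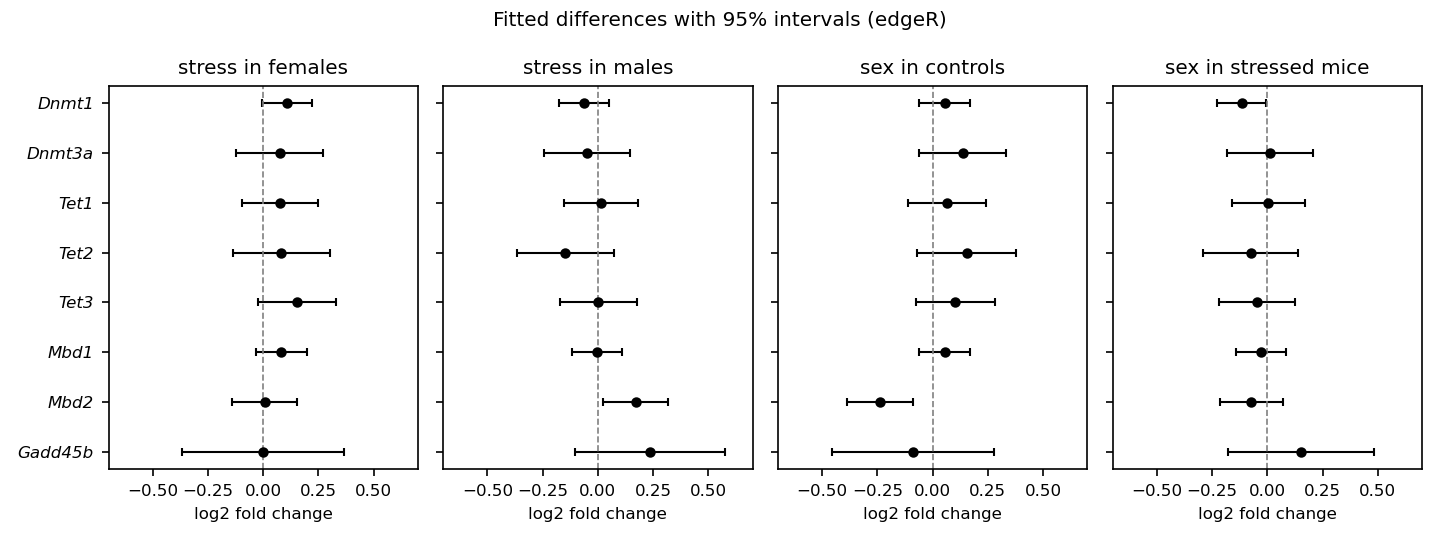
Log2 fold change of each measured member (points) with its 95% interval from the edgeR fit (bars), in 4 panels: stress effects in females and males, and male minus female differences among controls and among stressed mice. The Mbd2 intervals for stress in males and sex in controls and the Dnmt1 interval for sex in stressed mice lie off 0, and none of these passed after adjustment.

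The intervals bound what these libraries could have missed. For the 7 members other than Gadd45b the edges of the 95% intervals in the 4 comparisons of 2 groups ran from -0.39 to 0.38 on the log2 scale. For Gadd45b, which had the lowest counts, they ran from -0.45 to 0.58. A stress effect on the other 7 members larger than 0.36 in size lay outside the interval in both sexes.

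The start regions of the members differ in their number of CG dinucleotides, the site these enzymes act on. The start regions of 3 members are shown: Dnmt3a and Tet2, whose levels varied together across libraries, and Gadd45b, whose correlation with them did not pass the test. Each line is the stretch upstream of a RefSeq transcript start in GRCm38.p6, 5′ to 3′ on the gene's strand, with CG in capitals. Dnmt3a (first of 3 starts) is at chr12:3806730-3806979, plus strand. Tet2 is at chr3:133544391-133544640, minus strand. Both of these stretches lie inside the longer GENCODE M21 gene models, chr12:3806007-3914443 and chr3:133463679-133545139. Gadd45b is at chr10:80929841-80930072, plus strand, ending before the first exon of the GENCODE M21 gene model.
Dnmt3a: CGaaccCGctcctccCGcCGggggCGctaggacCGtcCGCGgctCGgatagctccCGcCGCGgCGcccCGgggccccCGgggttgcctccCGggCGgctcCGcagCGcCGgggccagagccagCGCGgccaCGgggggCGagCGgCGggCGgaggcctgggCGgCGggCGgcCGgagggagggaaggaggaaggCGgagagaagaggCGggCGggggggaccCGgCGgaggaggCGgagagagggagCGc
Tet2: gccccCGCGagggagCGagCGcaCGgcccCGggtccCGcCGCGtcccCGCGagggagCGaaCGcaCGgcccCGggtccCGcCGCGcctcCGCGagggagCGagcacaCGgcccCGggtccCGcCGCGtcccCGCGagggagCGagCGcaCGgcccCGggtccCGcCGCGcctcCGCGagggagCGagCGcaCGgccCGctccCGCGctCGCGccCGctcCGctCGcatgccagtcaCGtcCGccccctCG
Gadd45b: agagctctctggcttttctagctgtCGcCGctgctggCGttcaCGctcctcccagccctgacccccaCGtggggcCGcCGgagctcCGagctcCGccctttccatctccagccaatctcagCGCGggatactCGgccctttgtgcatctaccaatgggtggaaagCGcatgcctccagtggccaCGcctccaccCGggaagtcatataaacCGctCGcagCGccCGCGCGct
They hold 38, 51 and 21 CG in 250, 250 and 232 bases.

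Counted over the 250 bases upstream of a start, Tet2 had 51 CG, more than 99.93% of 32851 such RefSeq windows, whose median was 6. The Dnmt3a window had 38, more than 98.12%, and Gadd45b had 22, more than 85.18%. Tet3 had 17 and Tet1 15. The 3 annotated starts of Dnmt1 had 2, 7 and 26, and the other starts of Dnmt3a had 40 and 15. Of 4 motifs searched on both strands with any overlap allowed, TATAAA was in the Gadd45b window and in 12.37% of all windows. GGGCGG was in the windows of Dnmt3a (all 3 starts), Dnmt1 (the third start alone), Tet1, Tet2, Tet3 and Gadd45b and in 32.74% of all windows. Of these windows CACGTG was in those of Gadd45b and the third Dnmt3a start, and in 6.021% of all, and TGACGTCA was in none of them and in 1.546% of all. These are matches of letters only.

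**Figure D2:**
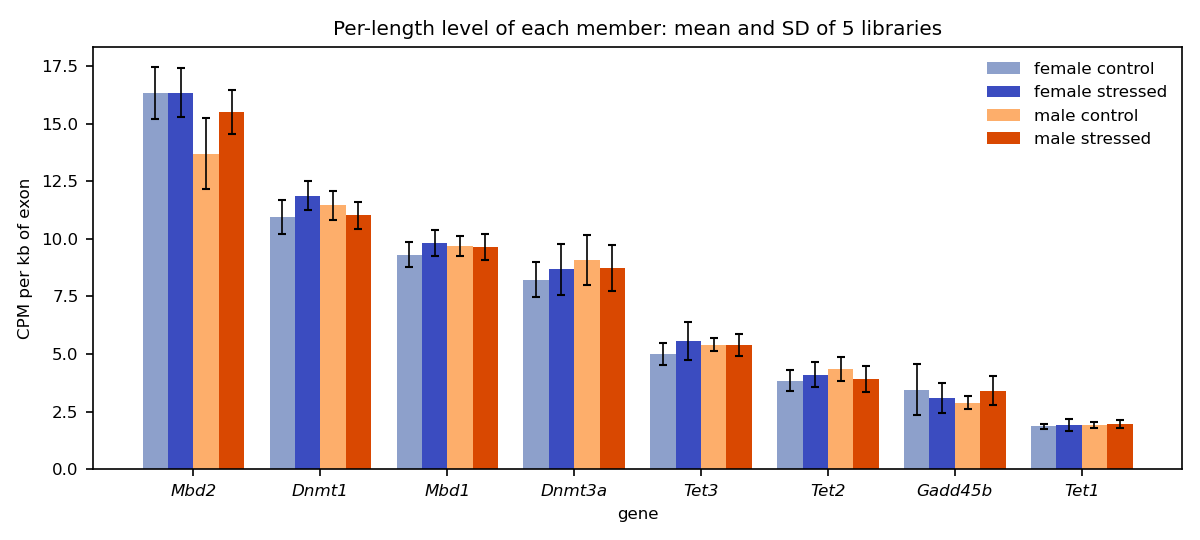
Level of each measured member in CPM per kilobase of exon, as the mean of the 5 libraries of each group (bars) with the SD (lines). Mbd2 is highest and Tet1 lowest in all 4 groups; the male control bar of Mbd2 is its lowest.

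Levels of different genes were compared per length, as CPM per kilobase of all exons of a gene in GENCODE M21. Averaged over the 20 libraries, Mbd2 was highest at 15.5, followed by Dnmt1 at 11.3, Mbd1 at 9.63 and Dnmt3a at 8.69 CPM per kilobase. Tet3 followed at 5.34, Tet2 at 4.06, Gadd45b at 3.21 and Tet1 at 1.91. The order of neighbours held in all 20 libraries except for Mbd1 over Dnmt3a, which held in 18, and Tet2 over Gadd45b, which held in 16. With the longest transcript as the length, Mbd2 stayed highest at 25.5 and Tet1 lowest at 2.06, but Mbd1 (16.5) and Dnmt3a (14.9) then stood above Dnmt1 (14.2). The order of the maintenance enzyme Dnmt1 and the de novo enzyme Dnmt3a therefore depended on the length used. By exon length, the ratio of Dnmt3a to Dnmt1 was 0.768 ± 0.0875 (SD, n = 20).

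The proportions of the 3 TET genes varied little over the libraries. Tet3 made up 47.2% ± 2.18 (SD, n = 20) of their summed level per exon length, Tet2 35.8% ± 2.08 and Tet1 17.0% ± 1.21. These shares depend on the length used. With the longest transcript as the length, the mean levels were 8.18 for Tet3, 7.46 for Tet2 and 2.06 CPM per kilobase for Tet1, which brings Tet2 nearer to Tet3. By group, the Tet3 share was 46.6% ± 1.88 in female controls, 48.0% ± 2.61 in stressed females, 46.3% ± 2.31 in control males and 48.0% ± 1.98 in stressed males (n = 5 each). These group means differed by less than the SD within a group.

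**Figure D3:**
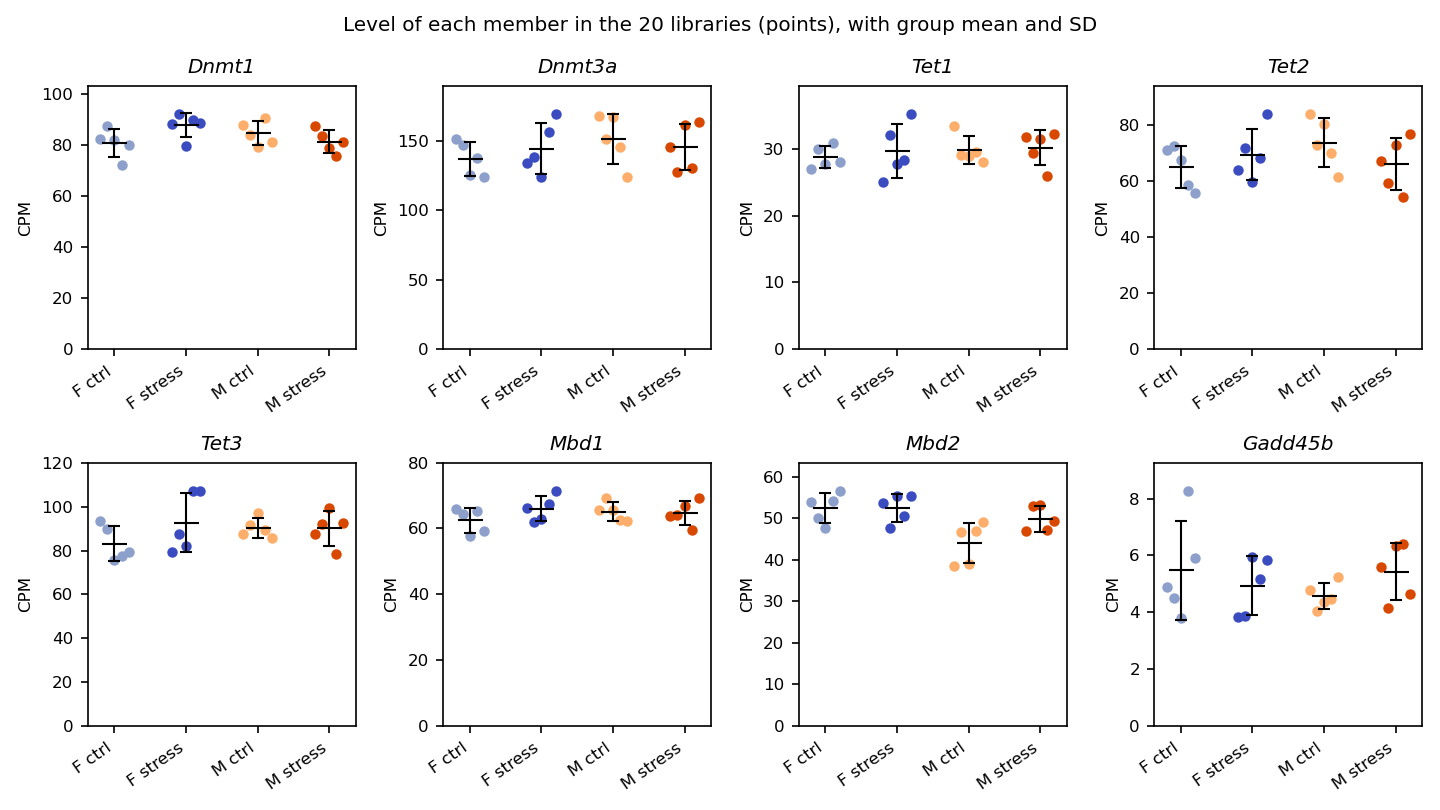
Level of each measured member in CPM in the 20 libraries (points), by female control (F ctrl), female stressed (F stress), male control (M ctrl) and male stressed (M stress), with the group mean and SD (lines); axes start at 0. Groups overlap for each gene, and the lowest Mbd2 values, 38.4 and 39.1, are male controls.

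Dnmt1 (chr9:20907209-20959888 on GRCm38, minus strand, GENCODE M21), the maintenance methyltransferase, was among the steadiest members, with a coefficient of variation of 6.32% over the 20 libraries against a median of 9.65% over all genes. In female controls it was at 82.5, 87.5, 82.0, 72.3 and 80.0 CPM in libraries 1 to 5, and in stressed females at 88.2, 92.1, 79.7, 89.8 and 88.7. In male controls it was at 87.9, 83.8, 79.3, 90.7 and 81.2 CPM, and stressed males had 87.3, 83.5, 78.9, 75.6 and 81.1. Of the stressed females 4 of 5 lay above all female controls, and stressed female 3 lay below most of them, while the control and stressed males were interleaved. The means were 80.9 ± 5.52 in control and 87.7 ± 4.71 CPM in stressed females, and 84.6 ± 4.69 in control and 81.3 ± 4.44 CPM in stressed males (SD, n = 5). The log2 fold change with stress was 0.11 (SE 0.05, edgeR adjusted p = 0.677) in females, and 0.061 with female control 4 and female stressed 2 both left out. In males the means differed by less than the SD of either group. The interaction was -0.17 (SE 0.08, adjusted p = 0.454), and stressed males against stressed females gave -0.12 (SE 0.05, adjusted p = 0.684). None of these passed.

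Dnmt3a (chr12:3806007-3914443, plus strand), the de novo methyltransferase, spread more, with a coefficient of variation of 11.1%. Its levels in libraries 1 to 5 were 151, 147, 125, 137 and 124 CPM in female controls and 134, 138, 124, 156 and 169 in stressed females. They were 168, 152, 167, 146 and 124 CPM in control males and 146, 128, 161, 130.2 and 163 in stressed males. Each group held both low and high libraries, so most of the spread was within the groups. The means were 137 ± 12.3, 144 ± 18.2, 151 ± 18.2 and 146 ± 16.8 CPM (SD, n = 5) in the same order of groups. The largest of its differences was that between male and female controls, 0.14 (SE 0.10, adjusted p = 0.538), which was 0.23 in the fit that adds the striatal score and 0.058 in the one that adds the oligodendrocyte score.

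Tet2 (chr3:133463679-133545139, minus strand) had the widest spread of the 3 oxidising enzymes, with a coefficient of variation of 12.8%. Its levels in libraries 1 to 5 were 71.0, 72.4, 67.3, 58.4 and 55.5 CPM in female controls and 63.8, 71.6, 59.5, 68.1 and 83.6 in stressed females. They were 83.7, 72.7, 80.3, 69.9 and 61.4 CPM in control males and 66.9, 59.3, 72.9, 54.2 and 76.8 in stressed males. Low and high libraries were found in each group, and the libraries high in Tet2 were mostly those high in Dnmt3a. The mean was 73.6 ± 8.80 in control and 66.0 ± 9.34 CPM in stressed males (SD, n = 5), a log2 fold change of -0.15 (SE 0.10, adjusted p = 0.541) that was -0.093 without male control 1 and -0.077 without male stressed 4. In females the means were 64.9 ± 7.58 and 69.3 ± 9.18 CPM, and the interaction was -0.23 (SE 0.15, adjusted p = 0.609), -0.15 without stressed female 5 and -0.14 with the oligodendrocyte score as a covariate.

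Tet3 (chr6:83362373-83459084, minus strand) lay between 75.7 and 107 CPM and Tet1 (chr10:62804570-62908996, minus strand) between 25.0 and 35.2 CPM over the 20 libraries. The highest Tet3 values, 107.4 and 107.5 CPM, were stressed female libraries 4 and 5. Mean Tet3 was 83.3 ± 8.00 in control and 92.9 ± 13.6 CPM in stressed females (SD, n = 5), a log2 fold change of 0.15 (SE 0.09, adjusted p = 0.709) that did not pass. It was 0.096 without stressed female 4, 0.093 without stressed female 5 and 0.079 with the oligodendrocyte score as a covariate. With single libraries left out it ran from 0.093 to 0.20. Oligodendrocyte markers, all 14 with a row, summed to 9683 to 13961 CPM in control and 9086 to 11173 CPM in stressed females, and 9 of 14 were lower at an unadjusted p under 0.05, where 3.83% of all genes were. After adjustment 0 of these markers were called. In males the Tet3 means were 90.4 ± 4.49 in control and 90.2 ± 7.84 CPM in stressed libraries. Male against female controls gave 0.10 for Tet3, which was 0.25 with the striatal score as a covariate (edgeR adjusted p = 0.211) and 0.060 with the oligodendrocyte score. The Tet3 interaction was -0.15, which became -0.31 with the striatal score (adjusted p = 0.316) and -0.092 with the oligodendrocyte score. Tet1 means were 28.7 ± 1.63 and 29.7 ± 4.01 CPM in control and stressed females and 29.8 ± 2.09 and 30.2 ± 2.61 in control and stressed males, which differ by less than the SD of a group.

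Gadd45b (chr10:80930073-80932204, plus strand), the adaptor induced by activity and stress, was the most variable member, with a coefficient of variation of 22.1%, and the least counted, with 22 to 217 counts a library. In libraries 1 to 5 it was at 4.87, 4.50, 3.79, 8.28 and 5.92 CPM in female controls and at 3.85, 3.85, 5.96, 5.16 and 5.84 in stressed females. In male controls it was at 4.78, 4.04, 4.34, 4.48 and 5.25 CPM, and stressed males had 5.59, 4.14, 6.33, 6.41 and 4.65. The highest value, 8.28, was the shallowest library, female control 4, with 22 counts. Male control libraries were close together, at 4.58 ± 0.462 CPM (SD, n = 5), and stressed males were at 5.42 ± 1.01. The log2 fold change in males was 0.24 (SE 0.16, adjusted p = 0.521), and it was -0.059 with the striatal marker score as a covariate. Over those alternatives that could be run its adjusted p lay between 0.347 and 1.00.

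The methyl-CpG readers Mbd1 and Mbd2 both map to chromosome 18, Mbd1 at 74267605 to 74282732 and Mbd2 at 70568189 to 70626131 on the plus strand of GRCm38. Mbd1 was the steadiest member, with a coefficient of variation of 5.45%, between 57.8 and 71.5 CPM. Its means were 62.5 ± 3.74 and 66.0 ± 3.80 CPM in control and stressed females and 65.0 ± 2.87 and 64.6 ± 3.73 in control and stressed males (SD, n = 5). Within each sex the control and stressed means differed by less than the SD of either group. The Mbd1 interaction was -0.084, which became -0.16 with the striatal score as a covariate (edgeR adjusted p = 0.428) and -0.048 with the oligodendrocyte score.

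Mbd2, the NuRD-linked reader, had the smallest p of the members, and it did not pass. In female controls it was at 54.0, 50.2, 47.6, 54.2 and 56.7 CPM in libraries 1 to 5, and in stressed females at 53.8, 47.8, 55.3, 50.5 and 55.5. In male controls it was at 38.4, 46.8, 39.1, 46.9 and 49.1 CPM, and stressed males had 46.8, 52.9, 53.2, 47.2 and 49.3. Male controls 1 and 3 lay below all other 18 libraries. Male control 2, at 46.82, lay just below the lowest library of the other groups, stressed male 1 at 46.84. Among libraries of the other groups, male control 4, at 46.91, lay above stressed male 1 alone. Male control 5 alone overlapped the female groups. The means were 52.5 ± 3.61, 52.6 ± 3.36, 44.1 ± 4.94 and 49.9 ± 3.06 CPM (SD, n = 5) in female control, female stressed, male control and male stressed libraries. Male against female controls gave a log2 fold change of -0.24 (SE 0.07, 95% interval -0.39 to -0.09, edgeR adjusted p = 0.118), and stressed against control males gave 0.17 (SE 0.07, 95% interval 0.03 to 0.32, adjusted p = 0.237). Both comparisons share the male control libraries. The interaction was 0.17 (SE 0.10, adjusted p = 0.574), and 0.027 in the fit that adds the striatal marker score.

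Striatal neuron markers moved with the Mbd2 values. All 14 genes of that list had a row. Their summed level was 3281 to 4045 CPM in male controls, 3505 to 6118 in female controls, 3414 to 6843 in stressed females and 4597 to 6806 in stressed males. At an unadjusted p under 0.05, 12 of 14 were lower in male than in female controls, where 8.17% of all genes were, and 13 of 14 were higher in stressed than in control males, where 8.71% of all genes were. After adjustment 0 of the 14 were called in either comparison. With the list's score as a covariate the Mbd2 difference between male and female controls was -0.11 (adjusted p = 0.522, within a range of 0.0640 to 0.522 over the alternatives), and that between stressed and control males was 0.03 (adjusted p = 0.991, within a range of 0.145 to 0.991). Within groups too, Mbd2 was higher in libraries with more striatal marker RNA, with a Pearson r of 0.64 (permutation p = 0.00057, adjusted p = 0.0410 over 72 relations of members with scores) and a Spearman rho of 0.61 (permutation p = 0.00091, adjusted p = 0.0336) over the 20 libraries after group means were subtracted. Without the 2 libraries farthest from the median score r was 0.60. This is no rare value among genes, since 12.5% of all genes had a larger r in size with that score. Mbd2 also had r = 0.59 with a score of glucocorticoid-induced genes and 0.58 with one of microglia markers. Neither passed (adjusted permutation p = 0.139 and 0.150), and 0.731% and 7.5% of all genes had a larger r in size with those scores.

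Across libraries, 4 of the genes rose and fell together within the groups: Dnmt3a, Tet2, Tet3 and Mbd1. Correlations were taken over the 20 libraries on log2 CPM after subtracting group means, with two-sided p from 100000 permutations within groups, adjusted over the 28 pairs of members. Dnmt3a and Tet2, a writer and an eraser, had the highest, with r = 0.88 (p = 4e-05, adjusted p = 0.00112) and rho = 0.86 (p = 4e-05, adjusted p = 0.00112). Without the 2 libraries farthest from the median of Dnmt3a, r was 0.85. Dnmt3a also followed Mbd1, with r = 0.77 (adjusted permutation p = 0.00495) and rho = 0.79 (adjusted p = 0.00224), and Tet3, with r = 0.74 (adjusted permutation p = 0.00495) and rho = 0.72 (adjusted p = 0.00607).

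Of the 28 pairs, 7 passed on r. The share of all gene pairs with correlations of this size was not computed, so the count does not set the members apart from other genes. The other 4 were Tet3 with Mbd1 (r = 0.68, rho = 0.70, adjusted permutation p = 0.0226 and 0.0232), Tet1 with Tet2 (r = 0.66, rho = 0.56, adjusted permutation p = 0.0226 and 0.0615), Tet2 with Tet3 (r = 0.65, rho = 0.65, adjusted permutation p = 0.0226 and 0.0232) and Tet2 with Mbd1 (r = 0.62, rho = 0.61, adjusted permutation p = 0.0366 and 0.0538). In that order, r without the 2 outermost libraries was 0.63, 0.60, 0.59 and 0.51. Of these, Tet1 with Tet2 and Tet2 with Mbd1 did not pass on rho. Dnmt1 and Gadd45b had r = -0.60 and rho = -0.57 (adjusted permutation p = 0.0522 and 0.0615), which did not pass, with an r of -0.43 without 2 libraries. Mbd2 passed with no other member.

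**Figure D4:**
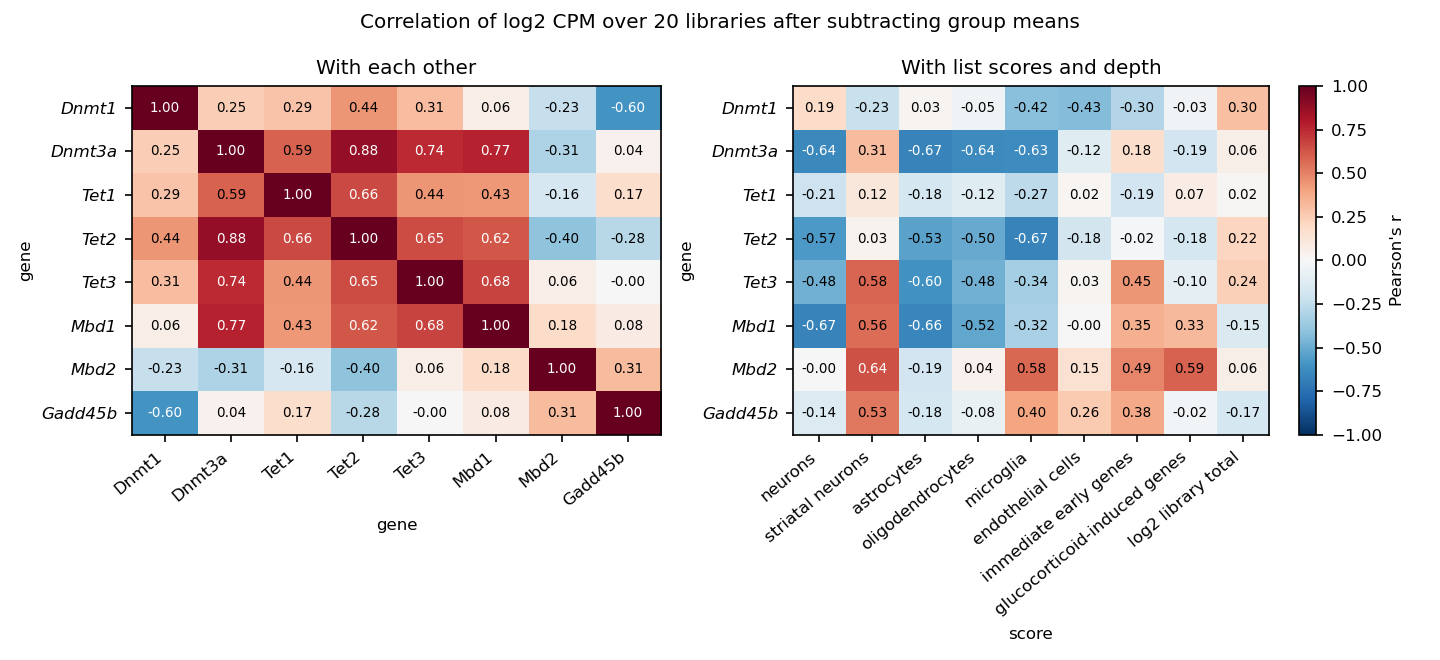
Pearson's r over the 20 libraries, after subtracting group means from log2 CPM, between the members (left) and of the members with marker scores, the immediate early and glucocorticoid-induced gene scores and the log2 of the library total (right); colour and printed number give r from -1 to 1. Dnmt3a, Tet2, Tet3 and Mbd1 form a block of positive values, and Mbd2 with the striatal score is at 0.64.

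Dnmt3a, Tet2 and Mbd1 had negative correlations with several cell marker scores, some of which passed on rho but none on r. With the striatal score their r was positive, at 0.31, 0.033 and 0.56, and did not pass either. Dnmt3a had r = -0.64 with the neuron score, -0.67 with the astrocyte score, -0.64 with the oligodendrocyte score and -0.63 with the microglia score (adjusted permutation p = 0.0514, 0.0514, 0.0514 and 0.0609). Of all genes, 8.12%, 9.94%, 9.51% and 4.27% had a larger r in size with these scores. On rho, the neuron and astrocyte relations of Dnmt3a were -0.67 and -0.70 (adjusted permutation p = 0.0336 each). Mbd1 had r = -0.67 with neurons and -0.66 with astrocytes, and Tet2 had -0.67 with microglia (adjusted permutation p = 0.0514 each), with rho of -0.70, -0.69 and -0.69 (adjusted permutation p = 0.0336 each). A larger r in size was found for 6.40%, 11.1% and 2.25% of all genes.

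Some measures of the kind of RNA in a library moved with Tet2 and Dnmt3a. The score of 7 nuclear-retained RNAs (Malat1, Neat1, Meg3, Miat, Rian, Mirg and Snhg11), picked after the values had been seen and so given with no p, had r = 0.88 with Tet2 and 0.82 with Dnmt3a over the 20 libraries, values exceeded in size by 1.40% and 2.90% of all genes. It had 0.52 with Mbd1 and 0.44 with Tet3, exceeded in size by 23.5% and 31.6% of all genes, 0.41 with Tet1, 0.28 with Dnmt1, -0.25 with Gadd45b and -0.44 with Mbd2. The mean of 1278 genes with at least 10350.3 exon bases, the members themselves left out, was also picked afterwards and had r = 0.88 with Tet2, 0.85 with Dnmt3a, 0.78 with Tet3, 0.73 with Tet1, 0.59 with Mbd1 and 0.46 with Dnmt1, exceeded in size by 0.631%, 1.23%, 3.50%, 5.67%, 16.3% and 30.9% of all genes. For Gadd45b and Mbd2, the shortest by exon length, it was -0.18 and -0.31. Tet1, Tet2, Tet3 and Dnmt3a, with 15457, 16870, 16695 and 16642 exon bases, are themselves above the cut of this score. The shares are over all genes, and those over long genes alone were not computed. The part of RNA kind or transcript length in these correlations was not tested.

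The genes most like each member were found by the same correlation over the 20 libraries, as a description. For Dnmt3a they were Smg1 (r = 0.97), Sfpq (0.96) and Mllt6 (0.95), and for Tet2 they were Ubn2 (0.97), Nsun7 (0.95) and Kcnq1ot1 (0.95). Smg1 is a kinase of nonsense-mediated decay, Sfpq a nuclear splicing factor and Kcnq1ot1 an imprinted noncoding RNA that stays in the nucleus. Tet3 was closest to Reln (0.91), the gene of the matrix protein reelin, Tet1 to Fbn2 (0.90), Mbd1 to Vps9d1 (0.91) and Gadd45b to Pabpc4 (0.92), a poly(A)-binding protein. Among the genes close to Mbd2 was Stim2 (0.84), a calcium sensor of the endoplasmic reticulum, and the closest to Dnmt1 were Otof (0.82) and Clip1 (0.81).

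The lists around the members were described by counts. Of the writers and maintenance list 6 of 10 genes had a row, and 0 were called in any of the 6 contrasts. Uhrf2, the relative of Uhrf1, came nearest, at 66.4 ± 3.05 in female and 78.5 ± 7.13 CPM in male controls (SD, n = 5), a log2 fold change of 0.23 (SE 0.06, edgeR adjusted p = 0.0620). Of 19 measured genes of oxidation and base excision, 15 of the methyl-CpG readers, 15 of NuRD and 9 of the Gadd45 family and its partners, 0 were called in any contrast. At an unadjusted p under 0.05, sex in controls gave 1 higher and 0 lower of the 6 writers, 1 and 1 of the 19 oxidation genes, 1 and 2 of the readers, 0 and 1 of NuRD, 4 and 0 of the 9 Gadd45 genes, and 3 and 1 of 16 genes of methyl group supply, where 7.08% of all genes were higher and 8.17% lower. The 4 Gadd45 partners were Map3k4, Ing1, Taf12 and Cdkn1a, with log2 fold changes of 0.14, 0.24, 0.20 and 0.31. Stress in males gave 0 and 0, 0 and 1, 3 and 1, 2 and 1, 0 and 0, and 2 and 2 in that order, where 8.71% of all genes were higher and 6.76% lower.

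Mat2a makes the methyl donor S-adenosylmethionine that the methyltransferases use. It was the 1 gene called in these lists, between male and female controls, where 0.747% of all genes were called. It belongs to the methyl group supply list, of which 16 of 21 genes had a row. Female controls were at 267, 257, 253, 244 and 231 CPM in libraries 1 to 5, and male controls at 306, 323, 324, 306 and 289. Each male control lay above each female control, where 3.97% of all genes had ranges that did not overlap between controls. Stressed females were at 266, 267, 258, 250.3 and 273 CPM, and stressed males at 254, 232, 289.8, 253 and 307. The means were 250.4 ± 13.6 in female and 309.6 ± 14.6 CPM in male controls (SD, n = 5), a log2 fold change of 0.30 (SE 0.06, edgeR adjusted p = 0.0247). Stressed males, at 267 ± 30.3 CPM, spread over both control ranges, and stress in males gave -0.21 (SE 0.06, adjusted p = 0.114), which passed in 2 of 31 alternatives, DESeq2 (adjusted p = 0.0481) and edgeR without male stressed 5 (0.0447), in a range of 0.0447 to 0.823. The interaction was -0.28 (SE 0.09, adjusted p = 0.330).

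The Mat2a call between controls ended when any of 5 single libraries was left out: its adjusted p was then 0.0557 without female control 4, 0.0945 without female control 5, 0.0525 without male control 1, 0.0660 without male control 2 and 0.0777 without male control 3. It was 0.0655 in the fit that adds the striatal score and 0.0514 with female control 4 and female stressed 2 both left out, in a range of 0.00125 to 0.0945 over all alternatives, and the log2 fold change stayed between 0.27 and 0.33.

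Lists on the state of the mice were read beside the members. Of 17 glucocorticoid-induced genes, 4 were called higher in male than in female controls, where 0.747% of all genes were called, and 1 was called lower in stressed than in control males, where 0.0077% were. The 4 were Sgk1, Tsc22d3, Arrdc2 and Ddit4, with log2 fold changes of 1.06, 0.64, 0.64 and 0.48, and the gene lower in stressed males was Arrdc2, with -0.71 (SE 0.10, edgeR adjusted p = 0.00851). Of 19 measured immediate early genes and 13 measured cell cycle genes, 0 were called in any contrast. Over the 20 libraries Gadd45b had r = 0.38 and rho = 0.44 with the immediate early score (adjusted permutation p = 0.451 and 0.241) and r = -0.023 and rho = -0.072 with the glucocorticoid-induced score (adjusted permutation p = 0.974 and 0.990), none of which passed.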

How the data were processed

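The authors deposited raw counts: whole numbers for each gene symbol, not normalized, as the values show. The submitters' processing notes name STAR, featureCounts and the mm10 build, with no versions. The annotation and the strand setting of the counting are not given in the sources used here. Whether reads of a gene and of any antisense neighbour were mixed, also at Tet3, could therefore not be judged. A stranded mRNA kit was used per the labels' protocols. Every gene of the table had a total of at least 1002 counts, and genes without a row were not analysed here.

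Counts were analysed in R 4.3.3 with edgeR 4.0.16 (TMM, quasi-likelihood, robust option off), fitting 4 group means and testing 6 contrasts. filterByExpr kept all 12988 genes. CPM were computed from the deposited counts with the TMM factors. P-values are two-sided and adjusted p come from this edgeR fit unless another test is named. The common biological coefficient of variation was 8.83%. Log2 CPM for scores and correlations used a prior count of 2, and a list's score is the mean over its genes. Permutations for correlations numbered 100000, and they kept libraries within their groups. DESeq2 1.42.0 and limma 3.58.1 were alternatives, with others of scaling, filter, groups fitted, replicate number, marker scores as covariates and single libraries left out. The fit was tested on simulated data. These had the same spread for all genes and planted changes larger than the folds of the members, so they do not test folds this small.

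Lengths came from GENCODE M21, matched for 12818 genes (98.69%), and start regions from RefSeq on GRCm38.p6. Both are of the build that mm10 names. Each library is a pool of 3 mice, so p-values measure the spread between pools. Libraries of a group differed by more than sampling noise in all 40 pairs.

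The members and the gene lists were chosen with earlier results of these data known. Named genes were the members, genes of a list at an unadjusted p under 0.05 in a contrast (at most 6 a list) and, for each member, genes from the 3 correlated most with it, of which 1 is not reported here. The lists were writers and maintenance, oxidation and base excision, methyl-CpG readers, NuRD, methyl group supply, the Gadd45 family and partners, immediate early, glucocorticoid-induced and cell cycle genes, and cell type markers.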

Additional observations from a re-analysis of the deposited data

How the results depend on the processing

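In each of the 6 contrasts 0 members were called under every alternative run, also with any 1 of the 20 libraries left out. The log2 fold changes followed were 25: those of members larger in size than their SE, and those of Mat2a at an unadjusted p under 0.05. Member folds smaller than their SE were left out, so the signs of folds nearest 0 were not followed. Of 763 recomputed values, 4 changed sign, all uncalled and all in the fit that adds the striatal score. Gadd45b became -0.059 for stress in males and -0.042 for the interaction, Tet3 -0.016 and Mbd1 -0.0060 for stress averaged over the sexes. The labels do not state that replicate numbers pair libraries. Same-numbered libraries of different groups had correlations of their deviations from -0.473 to 0.237. Between female and male controls their mean was 0.119, against -0.0296 for libraries of different number. Between female controls and stressed males it was -0.263 against 0.0654. Whether same-numbered libraries were handled together cannot be told from these values. With the replicate number as a block 0 members were called, and Mbd2 between controls was -0.25 (edgeR adjusted p = 0.156), while Mat2a between controls was 0.30 (adjusted p = 0.0598), which did not pass.

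Counts over all genes moved more. Stress in males called 1 gene, but 303 when only the groups compared were fitted, 239 with DESeq2 and between 0 and 232 with 1 library left out (232 without female stressed 2). Sex in controls called 97, and 248 with DESeq2, 304 with only the groups compared, 320 with the oligodendrocyte score as a covariate, 63 with limma-voom, 48 with the replicate block, and 32 to 214 with 1 library left out. The interaction called 0, and up to 22 with DESeq2, and stress averaged over the sexes called 0, and up to 13 with DESeq2 and 150 without female stressed 2. With that library and female control 4 both left out, an alternative chosen after seeing the data, stress in males called 182. The cause was not tested. Depth limits Gadd45b most, with 22 counts in the shallowest library.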
